A study of Mus musculus with 14 samples.

Results

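Genes of neural stem cells and dividing cells, 9 in number, were followed in RNA sequencing of the mouse hippocampus. Mki67, Top2a, Cdk1 and Ccnb1 mark cells in division, Eomes marks intermediate progenitors, and Sox2, Nes, Hes5 and Hopx are expressed in neural stem cells. They are taken by symbol, by a rule that uses no measured value, although the set was put together with earlier results of these data known. All 9 were found among the 18722 genes with a value in any library. All mice were of the C57BL6 strain. Some were wild type, and the others carried 1 bGeo allele of Kmt2d (KMT2D+/bGeo), called mutants here. Kmt2d encodes a histone H3 lysine 4 methyltransferase. They received methylcellulose vehicle, either alone or with TAK-418, which blocks LSD1, a histone demethylase encoded by Kdm1a. Dosing was by gavage at 1 mg/kg/day for 2 weeks from an age of 2 weeks, and the labels give an age of 30 days. All mice were dosed, so each control group carries the gavage and vehicle. Vehicle libraries numbered 3 from wild types and 3 from mutants, and TAK-418 libraries 5 from wild types and 3 from mutants, 14 in all.

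In the young hippocampus, radial glia-like stem cells of the dentate gyrus are mostly quiescent and depend on Sox2 and on Notch signalling, whose effector Hes5 represses neuronal genes. When they are activated they give rise to dividing, Eomes-positive progenitors, and these become granule neurons. Oligodendrocyte precursors and microglia also divide, astrocytes also express Sox2 and Hopx, and vessel cells also express Nes. In a whole-tissue library, fewer cells of a type and less RNA per cell cannot be told apart.

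The promoters of the division genes are shown because these genes share promoter elements that the choice by symbol did not use. Many genes of G2 and mitosis carry CCAAT boxes, bound by NF-Y, and a cell cycle homology region (CHR), bound by the MuvB complex. The 250 bases before the RefSeq start of each gene (GRCm38.p6) were searched on both strands for CCAAT, which reads ATTGG on the other strand, and for the CHR letters TTTGAA, which read TTCAAA on the other strand. Capitals mark the matches, none of which overlapped another, and each run is written 5′ to 3′ on the gene's own strand. The windows are chr7:135716380-135716629 for Mki67, chr11:99024190-99024439 for Top2a and chr10:69352913-69353162 for Cdk1, all on the minus strand.
Mki67: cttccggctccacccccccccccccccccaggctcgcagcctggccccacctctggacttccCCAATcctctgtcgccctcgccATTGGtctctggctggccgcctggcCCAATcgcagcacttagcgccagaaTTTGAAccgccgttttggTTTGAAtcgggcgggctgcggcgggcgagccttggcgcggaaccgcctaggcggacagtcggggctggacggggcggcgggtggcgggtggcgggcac
Top2a: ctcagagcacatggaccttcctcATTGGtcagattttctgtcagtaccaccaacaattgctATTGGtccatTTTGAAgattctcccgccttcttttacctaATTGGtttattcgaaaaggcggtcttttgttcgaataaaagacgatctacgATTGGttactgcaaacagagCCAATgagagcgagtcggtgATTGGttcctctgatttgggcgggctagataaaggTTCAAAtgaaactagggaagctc
Cdk1: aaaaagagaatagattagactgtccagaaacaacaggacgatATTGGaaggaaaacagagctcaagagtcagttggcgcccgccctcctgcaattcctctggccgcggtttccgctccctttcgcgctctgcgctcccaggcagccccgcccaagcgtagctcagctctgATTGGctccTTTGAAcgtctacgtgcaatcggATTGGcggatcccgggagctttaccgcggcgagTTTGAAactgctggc
Top2a held 6 CCAAT boxes, Mki67 and Cdk1 3 each, and Ccnb1 2. Mki67, Top2a and Cdk1 each held 2 CHR matches. The CHR match nearest the start began 15 bases upstream in Cdk1, 23 in Top2a and 98 in Mki67. In the Ccnb1 window (chr13:100786487-100786736, minus strand) the CHR letters were not found, and its sequence is not printed because 84 of its bases lie in GENCODE exons of the gene. Of the Cdk1 window the last 26 bases also lie in a GENCODE exon, and the CHR match nearest the start is among them. Of 32851 RefSeq promoter windows of the same length, 33.8% held at least 1 CCAAT box and 10.1% at least 2. At least 1 CHR match was in 16.0%, and at least 2 of both motifs in 0.161%. These are matches of letters, not measured binding sites.

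In the same windows Eomes and Hes5 held 2 CCAAT boxes each, Sox2 1 and Nes none, and none of these held the CHR letters. Hes5 is shown because it is the Notch effector of the set: capitals here mark only TGGGAA, which reads TTCCCA on the other strand, the core letters of the RBPJ site, found 226 and 82 bases upstream of the start in chr4:154960673-154960922, plus strand. The Ccnb1 window also held 1 such match. At least 1 was in 21.6% of all windows and at least 2 in 2.77%.
Hes5: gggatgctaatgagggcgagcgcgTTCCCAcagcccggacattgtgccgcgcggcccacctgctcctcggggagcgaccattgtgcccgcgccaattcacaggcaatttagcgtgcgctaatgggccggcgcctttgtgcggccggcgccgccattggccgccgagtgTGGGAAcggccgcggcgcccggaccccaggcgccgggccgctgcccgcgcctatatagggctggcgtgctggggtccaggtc
Hopx is shown at the promoter nearest to the assembled 5′ ends. Its gene has annotated starts at chromosome 5 positions 77115121, 77095277 and 77095253 (GENCODE M21). In all 14 libraries the assembled Hopx transcripts, 28 in total, began at 77095251, 2 bases inside the nearest of these starts.
Hopx: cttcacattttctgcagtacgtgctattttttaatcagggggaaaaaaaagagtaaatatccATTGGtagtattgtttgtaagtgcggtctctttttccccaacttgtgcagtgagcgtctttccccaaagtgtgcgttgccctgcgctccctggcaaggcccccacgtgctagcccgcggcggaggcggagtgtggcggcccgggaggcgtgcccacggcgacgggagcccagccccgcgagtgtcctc
The window printed for Hopx is chr5:77095268-77095517 on the minus strand, with 1 CCAAT box in capitals, and its last 10 bases lie in a GENCODE exon. A start near the upstream promoter was assembled in 1 library, wild-type TAK-418 replicate 2, where 1 transcript began at 77115040 with an abundance of 4.27, or 4.87% of the gene's abundance in that library.

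The deposited transcript assemblies list each transcript with an abundance, whose unit is not given in the sources used here. Relative depth was inferred from the smallest steps between abundances. It is given in M, which are megareads only if the abundance is an FPKM. It spanned 35.1 to 59.98 M apart from replicate 1 of wild-type TAK-418, the deepest library by this estimate, which reached 168 M. Kmt2d, the targeted gene, had lower means in mutants than in wild types of the same treatment. Its base-averaged values (explained in the next paragraph) were 10.8 to 13.7 in wild-type vehicle, 8.58 to 12.5 in mutant vehicle, 11.9 to 14.8 in wild-type TAK-418 and 9.36 to 11.4 in mutant TAK-418 libraries. The vehicle groups overlapped and the TAK-418 groups did not (log2 change -0.32 ± 0.12, SE, adjusted p = 0.911, limma). Of all genes tested, 4.6% had no overlap between the TAK-418 groups. With the summed value, the Kmt2d ranges of these groups overlapped, at 12.5 to 18.0 in wild types and 9.34 to 14.6 in mutants. Which part of the gene the allele alters is not given in the sources used here, so its total level is only a partial check of the labels. Kdm1a, the target of the drug, was at 29.7 to 34.6 in all libraries. Hippocampal neuron markers were present in every library, 10 of 10. Choroid plexus and ependyma markers, from neighbouring tissue, had a summed level of 31.6 to 56.7 among wild types given TAK-418. They reached 6471 in 1 wild-type vehicle, 919 and 5068 in 2 mutant vehicle, and 621 in 1 mutant TAK-418 library. The part of this tissue in the members' values was not tested.

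A pair of values per gene is used. The summed value adds the abundances of all transcripts of a gene, which was the planned measure. The base-averaged value is the mean abundance over those exon bases of 1 reference transcript that were assembled, and was added after the assemblies were seen to break low genes into pieces. Both were scaled by the median of ratios. Top2a, with 36 exons, was assembled in 1 to 6 pieces per library, and each piece adds its own abundance to the sum. Its summed values were 3.66, 2.26 and 3.88 in wild-type vehicle, where it lay in 5, 3 and 4 pieces. In wild-type TAK-418 they were 1.13, 1.28, 2.57, 2.45 and 1.32, with 1, 1, 3, 2 and 1 pieces. The base-averaged values of the same libraries ran from 1.06 to 1.49, a narrower range. The base-averaged value has its own limit: it covers only what was assembled, so unassembled, weakly covered exons do not lower it.

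**Figure D1:**
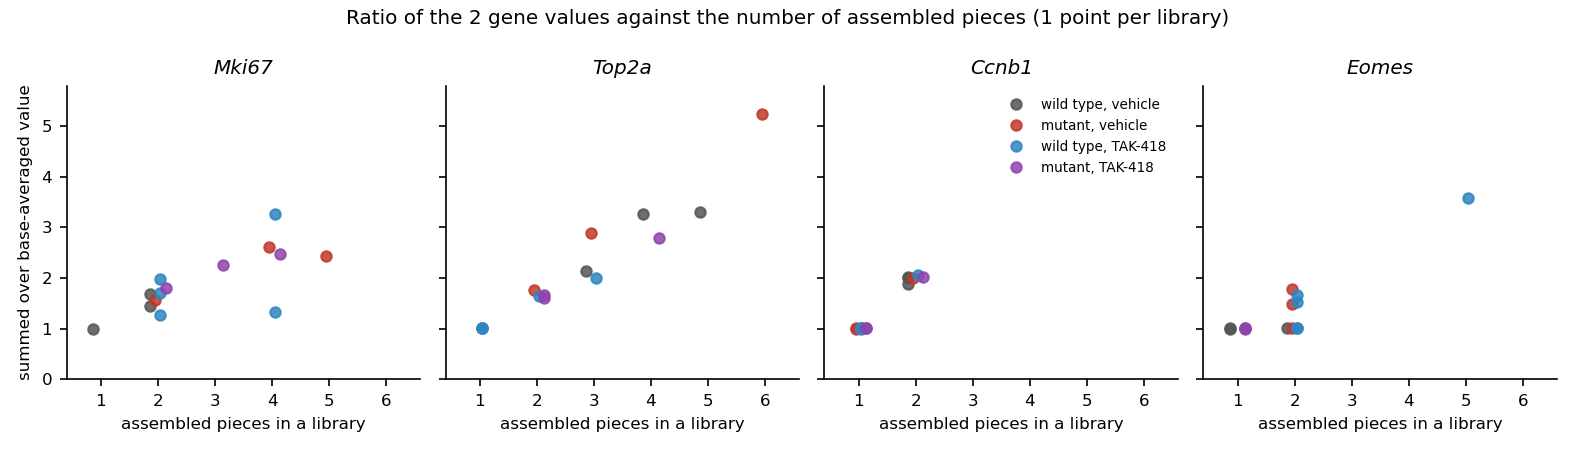
Summed value divided by base-averaged value (y axis, no unit) against the number of assembled pieces (x axis) for Mki67, Top2a, Ccnb1 and Eomes, with 1 point per library coloured by group. Libraries in which Top2a lay in 1 piece sit at a ratio near 1, and those with more pieces sit higher.

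Mki67 encodes the proliferation antigen Ki-67 (chromosome 7, 135689784 to 135716361, minus strand, 14 exons). Its base-averaged values were 1.63, 1.31 and 1.29 in wild-type vehicle and 1.16, 1.29 and 0.907 in mutant vehicle libraries. They were 0.996, 1.26, 1.09, 1.31 and 1.13 in wild-type TAK-418 and 1.19, 1.08 and 1.19 in mutant TAK-418 libraries. The highest library was a wild-type vehicle one and the lowest a mutant vehicle one, and the groups of each of the 4 pairwise contrasts overlapped. Wild-type vehicle and mutant TAK-418 libraries, which none of the planned contrasts compares, did not overlap. For Top2a this pair did not overlap either, but in the other direction (1.06 to 1.18 against 1.19 to 1.21). The authors' deposited table of this pair gave Mki67 at 0.611 FPKM in wild-type vehicle and 0.663 in mutant TAK-418, opposite to the base-averaged order. There Top2a was at 1.13 and 1.31 FPKM, in the same order as its base-averaged values. The share of all genes without overlap in this pair was not computed. The mutant vehicle mean was lower than the wild-type vehicle mean by a log2 change of -0.22 ± 0.11 (SE; adjusted p = 0.874, limma), while the summed value gave 0.24 ± 0.23 (adjusted p = 1), the opposite sign. The summed change was 0.39 without mutant vehicle replicate 1 and 0.10 without replicate 2 of that group. Of the exon bases, 8.32% to 41.8% were assembled in 13 libraries and 96.4% in the deepest one.

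Top2a encodes topoisomerase IIα, which untangles chromosomes before they separate (chromosome 11, 98992943 to 99024189, minus strand). Base-averaged values were 1.10, 1.06 and 1.18 in wild-type vehicle, 1.18, 1.22 and 1.37 in mutant vehicle, and 1.19, 1.21 and 1.19 in mutant TAK-418 libraries. In wild-type TAK-418 they were 1.12, 1.27, 1.28, 1.49 and 1.31, so 4 of these 5 lay above every wild-type vehicle library and 1 lay among them. The change with TAK-418 in wild types was 0.14 ± 0.08 (log2, SE; adjusted p = 0.658, limma). With the summed value the same contrast gave -0.67 ± 0.29 (unadjusted p under 0.05, adjusted p = 0.553, limma), the opposite sign. With only the highest transcript of the gene it was 0.03.

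Cdk1, the kinase that drives entry into mitosis, and Ccnb1, its cyclin B1 partner, had the lowest base-averaged means of the set. Cdk1 (chromosome 10, 69335146 to 69352938, minus strand) had base-averaged values of 0.962, 1.17 and 0.764 in wild-type vehicle, 1.10, 1.16 and 0.997 in mutant vehicle, 0.814, 0.924, 0.786, 1.16 and 0.931 in wild-type TAK-418, and 0.695, 0.750 and 1.25 in mutant TAK-418 libraries. The last group held both the lowest and the highest library. Its group means were 0.966 ± 0.204 and 1.09 ± 0.0847 for wild-type and mutant vehicle (SD, n = 3 each). With TAK-418 they were 0.924 ± 0.149 in wild types (SD, n = 5) and 0.897 ± 0.303 in mutants (SD, n = 3). For Ccnb1 (chromosome 13, 100778650 to 100786570, minus strand) the values were 1.04, 0.665 and 0.660 in wild-type vehicle, 0.878, 0.960 and 1.17 in mutant vehicle, 0.791, 0.791, 0.982, 0.689 and 0.798 in wild-type TAK-418, and 0.752, 0.593 and 1.05 in mutant TAK-418 libraries. All groups overlapped, and the highest library was a mutant vehicle one. For Ccnb1 the means under vehicle were 0.786 ± 0.215 in wild types and 1.00 ± 0.153 in mutants (SD, n = 3 each). With the drug, wild types had 0.81 ± 0.106 (SD, n = 5) and mutants 0.799 ± 0.233 (SD, n = 3). With the base-averaged value, Cdk1 and Ccnb1 both had their highest mean in mutant vehicle libraries. The log2 change from wild-type vehicle was 0.11 ± 0.15 (adjusted p = 0.979, limma) for Cdk1 and 0.21 ± 0.14 (adjusted p = 0.961, limma) for Ccnb1. The base-averaged change with TAK-418 in mutants was -0.18 ± 0.15 and -0.20 ± 0.14 (SE, adjusted p = 1 for both, limma). The summed value put both genes highest in wild-type vehicle libraries, at means of 1.60 for Cdk1 and 1.55 for Ccnb1. Its changes from wild-type to mutant vehicle were -0.05 ± 0.22 for Cdk1 and -0.16 ± 0.27 for Ccnb1 (SE), the opposite sign. None of these changes passed the test.

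Eomes encodes a T-box factor of intermediate progenitors (chromosome 9, 118478212 to 118486132, plus strand). Base-averaged values were 0.794, 1.11 and 1.22 in wild-type vehicle, 1.66, 1.08 and 1.17 in mutant vehicle, and 1.36, 0.998 and 0.877 in mutant TAK-418 libraries. In wild-type TAK-418 they were 1.24, 1.17, 1.13, 0.499 and 1.09. Replicate 4 of that group was the lowest of all 14, and the highest was a mutant vehicle library. The summed value put Eomes under an unadjusted p of 0.05 in 3 contrasts. The interaction of genotype and drug was -0.80 ± 0.27 (log2, SE; adjusted p = 0.977, limma). The genotype effect under vehicle was 0.49 ± 0.20 (adjusted p = 0.868, limma) and the TAK-418 effect in mutants -0.46 ± 0.20 (adjusted p = 1, limma). With the base-averaged value these were -0.14 ± 0.27, 0.20 ± 0.20 and -0.17 ± 0.20, with an unadjusted p above 0.05 for each in limma. Eomes lay in 2 pieces in all 3 mutant vehicle libraries and in 1 piece in all 3 mutant TAK-418 libraries. Choroid plexus and ependyma markers were high in some vehicle libraries. The 6 of them with a value in at least 12 libraries correlated with base-averaged Eomes over the 14 libraries at r = 0.59 (rho = 0.61, and 0.35 without the 2 farthest libraries). Eomes also gave r = -0.51 with endothelial and mural markers and -0.50 with astrocyte markers. The part of these cells in the Eomes values was not tested.

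**Figure D2:**
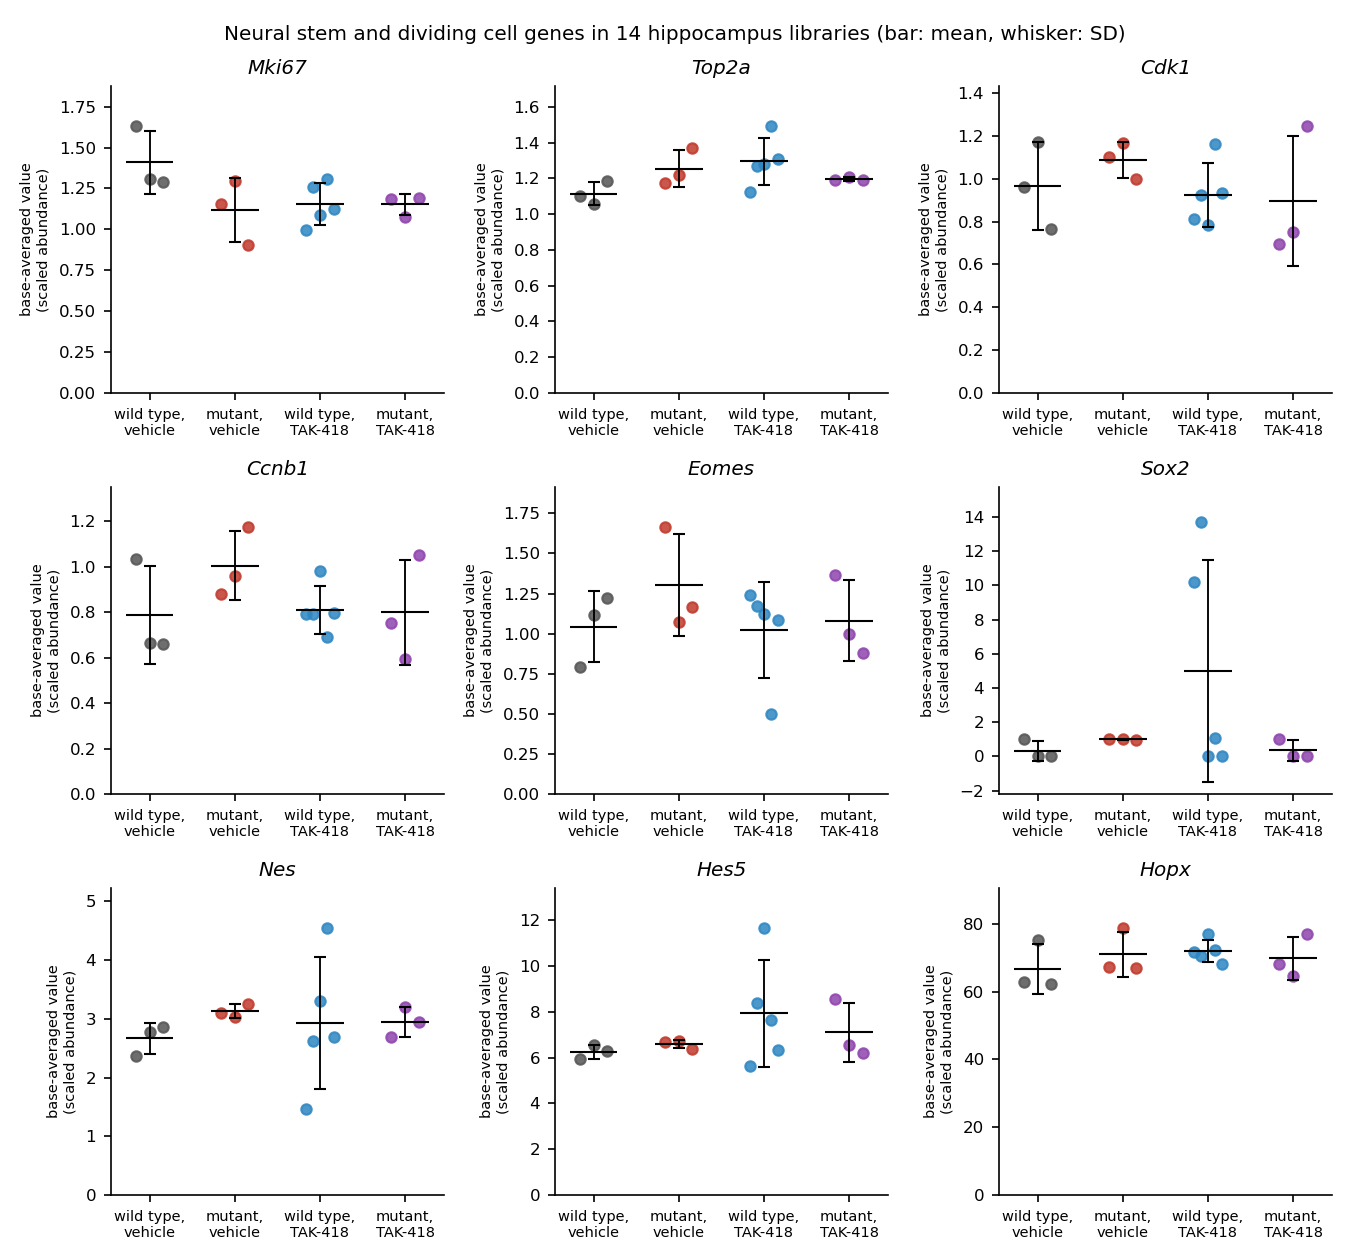
Base-averaged value of each gene (y axis, scaled abundance, each panel with its own range) in the 4 groups (x axis), with 1 point per library, a bar at the mean and a whisker of 1 SD. In each of the 4 pairwise contrasts the groups overlap, except that the 3 mutant vehicle libraries of Nes (3.03 to 3.26) lie above the 3 wild-type vehicle ones (2.37 to 2.86), and Sox2 is listed at 0 in 6 libraries.

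Nes encodes nestin, an intermediate filament of stem and vessel cells (chromosome 3, 87971078 to 87980451, plus strand). Base-averaged values were 2.37, 2.78 and 2.86 in wild-type vehicle and 3.10, 3.03 and 3.26 in mutant vehicle libraries, which did not overlap. Wild-type TAK-418 libraries had 1.47, 2.62, 3.30, 4.55 and 2.69, and mutant TAK-418 libraries 2.69, 3.20 and 2.95. The wild-type TAK-418 group thus held both the lowest and the highest library of all 14, the lowest being the deepest one. The mutant vehicle libraries exceeded the wild-type vehicle ones by 0.19 ± 0.24 on the log2 scale (SE; adjusted p = 0.976, limma), where the error is set by the spread over all 4 groups. Endothelial and mural cell markers, which include cells that express Nes, summed to 118 to 124 in wild-type vehicle and 112 to 133 in mutant vehicle libraries. Their part in the Nes values was not tested.

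Hes5 (chromosome 4, 154960923 to 154962371, plus strand) had base-averaged values of 5.93, 6.54 and 6.29 in wild-type vehicle and 6.68, 6.71 and 6.37 in mutant vehicle libraries. They were 5.64, 8.38, 11.7, 7.66 and 6.32 in wild-type TAK-418 and 8.56, 6.53 and 6.20 in mutant TAK-418 libraries. Vehicle libraries were close together, and 4 TAK-418 libraries lay above all of them while the others lay among or below them. The change with TAK-418 was 0.27 ± 0.18 in wild types (log2, SE; adjusted p = 0.696, limma) and 0.09 ± 0.20 in mutants (adjusted p = 1, limma).

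Hopx, a small homeodomain protein of quiescent stem cells and astrocytes (chromosome 5, 77086988 to 77115121, minus strand), was the most abundant of the 9. Base-averaged values were 62.7, 75.3 and 62.3 in wild-type vehicle, 67.2, 78.8 and 67.1 in mutant vehicle, 71.7, 70.6, 77.1, 72.3 and 68.2 in wild-type TAK-418, and 68.0, 64.6 and 76.9 in mutant TAK-418 libraries. Its SD over the 14 libraries was 7.67% of the mean, the smallest of the set, against 9.17% for Top2a and 24.6% for Eomes. Its largest change in the pairwise contrasts was 0.11 ± 0.08 with TAK-418 in wild types (log2, SE; adjusted p = 0.72, limma).

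Sox2, a single-exon gene and stem cell transcription factor (chromosome 3, 34650405 to 34652461, plus strand), could not be followed across groups. A transcript on its exon was listed in 8 of 14 libraries: under vehicle in 1 of 3 wild types and 3 of 3 mutants, and with the drug in 3 of 5 wild types and 1 of 3 mutants. In 6 of them the abundance was 0.845 to 1.14 on a single exon. In wild-type TAK-418 replicate 2 it was 14.6, and in replicate 1 the Sox2 exon was part of a 6-exon transcript at 10.05. The authors' deposited tables hold Sox2 only within a locus of 6 genes that includes the long noncoding RNA Sox2ot, at 31.7 to 35.0 FPKM, which does not give the level of Sox2 itself. Its 95% intervals over the 5 contrasts ran from -5.64 to 3.69 on the log2 scale.

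Over all 14 libraries the base-averaged means were 0.844 for Ccnb1, 0.962 for Cdk1, 1.10 for Eomes, 1.20 for Mki67, 1.23 for Top2a, 2.92 for Nes, 7.11 for Hes5 and 70.2 for Hopx. The 5 division and progenitor genes overlapped in their library values, so their order is not resolved, while Nes, Hes5 and Hopx did not overlap with each other. Among 14111 genes with a value in all libraries, Ccnb1 stood at the 3.83rd percentile, Mki67 at the 7.30th, Nes at the 18.2nd, Hes5 at the 34.8th and Hopx at the 90.1st.

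Genotype under vehicle was compared as mutant vehicle over wild-type vehicle. None of the 9 genes passed an adjusted p of 0.05 in limma, beside 0% of the 16568 genes tested called with the summed value and 0.0227% of 17617 with the base-averaged one. Of the 9, 1 had an unadjusted p under 0.05 with the summed value (Eomes) and 0 with the base-averaged value, beside 5.46% and 5.66% of all genes. Directions are counted without Sox2, which some libraries list at 0. With the base-averaged value 7 of 8 were higher in mutants, with a median log2 change of 0.11 against 0.00 over all genes, and the changes ran from -0.22 (Mki67) to 0.21 (Ccnb1). Groups did not overlap for 1 of 9 (Nes), beside 8.98% of all genes tested.

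TAK-418 in mutants was compared as mutant TAK-418 over mutant vehicle. None of the 9 was called, beside 0.00604% of all genes with the summed and 0.017% with the base-averaged value. With the base-averaged value 6 of the 8 genes other than Sox2 were lower with TAK-418, the median being -0.06 against 0.00 over all genes. Their changes ran from -0.20 (Ccnb1) to 0.09 (Hes5), and 0 of 9 had groups without overlap, beside 8.58% of all genes. The 3 mutant vehicle libraries enter both this and the previous comparison, so a gene high in them is higher in the first and lower in the second.

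TAK-418 in wild types was compared as wild-type TAK-418 over wild-type vehicle. None of the 9 was called, beside 0.00604% and 0.0227% of all genes with the summed and base-averaged value. Of the 8 genes other than Sox2, 5 were higher and 3 lower with either value, with a base-averaged median of 0.04 against 0.00 over all genes. The base-averaged changes ran from -0.19 (Mki67) to 0.27 (Hes5). No member had groups without overlap, beside 6.64% of all genes.

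Genotype under TAK-418 was compared as mutant TAK-418 over wild-type TAK-418. None of the 9 was called, beside 0.0121% and 0.0227% of all genes, and no member had groups without overlap, beside 4.6% of all genes. Base-averaged changes without Sox2 ran from -0.12 (Hes5) to 0.07 (Nes), the narrowest range of the 4 pairwise contrasts. For the difference between the TAK-418 effects in mutants and wild types (the interaction), limma called none of the 9, beside 0.00604% and 0.00568% of all genes. Base-averaged interactions without Sox2 ran from -0.23 (Ccnb1) to 0.22 (Mki67), and summed ones from -0.80 (Eomes) to 0.24 (Ccnb1).

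These tests do not show that the genes were equal between groups. For the 8 genes other than Sox2, the 95% intervals of the base-averaged changes in the 4 pairwise contrasts lay between -0.61 (Eomes, TAK-418 in mutants) and 0.71 (Nes, genotype under vehicle) on the log2 scale. Top2a and Hopx had the narrowest intervals, which lay between -0.24 and 0.31 for Top2a and between -0.22 and 0.29 for Hopx. With the summed value the interval ends of these 8 genes furthest from 0 on either side were both of Top2a. They were -1.30 for TAK-418 in wild types and 0.97 for genotype under TAK-418.

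**Figure D3:**
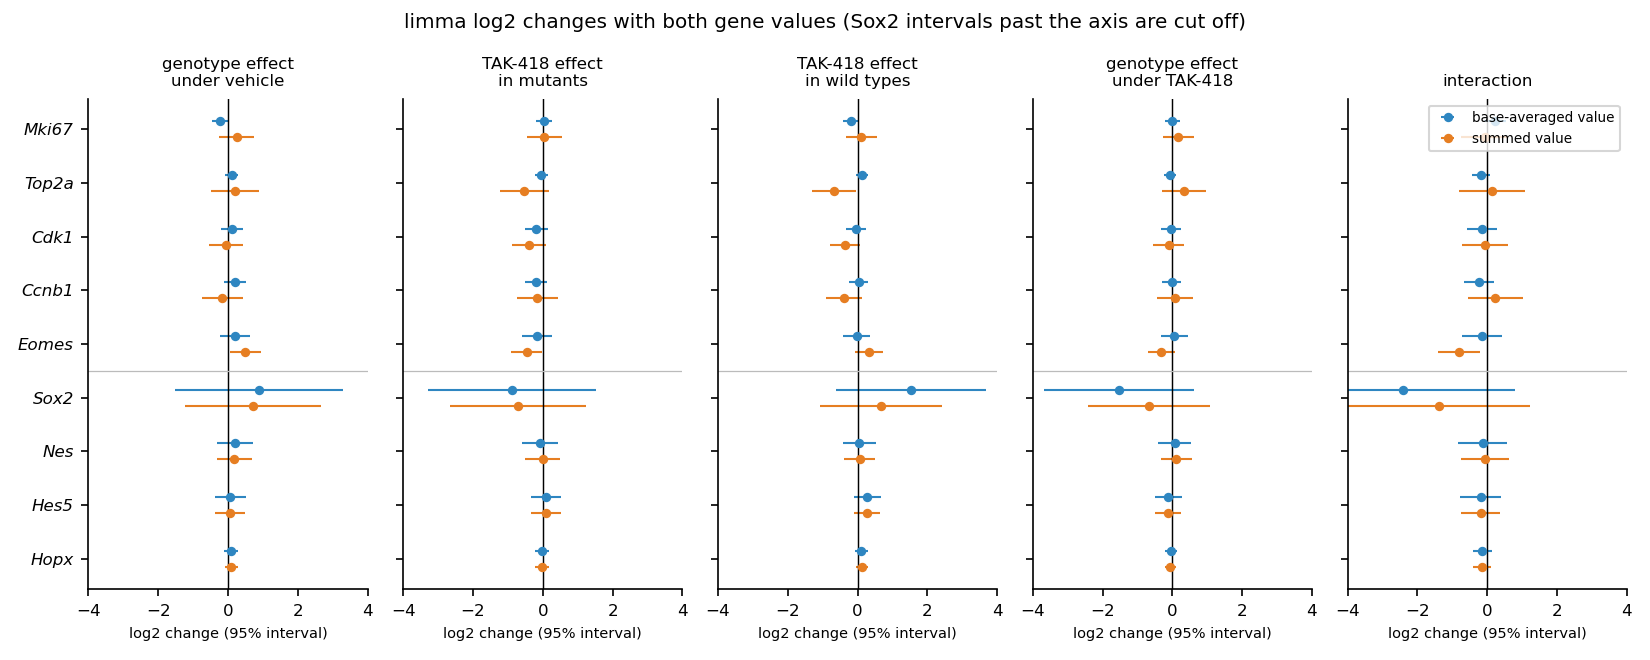
Log2 change with its 95% interval (x axis) of each gene (y axis) in the 4 pairwise contrasts and the interaction, with the base-averaged value in blue and the summed value in orange. All base-averaged intervals include 0, and the orange interval of Top2a with TAK-418 in wild types and those of Eomes under vehicle, with TAK-418 in mutants and for the interaction do not.

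The authors' deposited tables give 1 FPKM per group and locus, pooled over libraries, in 4 comparisons, with no spread between mice. Each member had 1 tested locus in them, that of Top2a shared with Gm23451 and that of Sox2 with 5 other genes. A second Mki67 locus, at 0.018 to 0.0514 FPKM, was not tested by the authors. None of the 9 loci was called at the authors' q-value of 0.05 in any table, beside 0.224% of tested loci for mutant vehicle over wild-type vehicle, 0.324% for mutant TAK-418 over wild-type vehicle, 0.218% for mutant TAK-418 over wild-type TAK-418 and 0.611% for mutant vehicle over wild-type TAK-418. Wild-type vehicle had the lowest pooled FPKM of the 4 groups for 6 of the 8 members other than Sox2. How often this group was the lowest over all loci was not computed. For Eomes and Hopx the gap to the next group was small (0.882 to 0.905 and 59.6 to 61.2 FPKM). In the authors' deposited tables Nes was at 1.75 FPKM in wild-type vehicle, 2.09 in mutant vehicle, 2.19 in wild-type TAK-418 and 2.11 in mutant TAK-418. Its authors' p-value was 0.0916 for mutant vehicle and 0.0580 for mutant TAK-418 over wild-type vehicle, with q-values of 1.00. Ccnb1 went from 0.423 to 0.624 FPKM between wild-type and mutant vehicle in the authors' deposited table (p = 0.141, q = 1.00), the largest log2 fold change there at 0.56. Hes5 was at 5.71 FPKM in both vehicle groups, 6.70 in wild-type TAK-418 and 7.20 in mutant TAK-418 in the authors' deposited tables, with the smallest p at 0.130 (q = 0.695) for mutant vehicle over wild-type TAK-418. Mki67 ran from 0.607 to 0.72 FPKM there, with wild-type vehicle the lowest group. The base-averaged value put that group highest, a difference in order between 2 ways of measuring the same libraries.

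**Figure D4:**
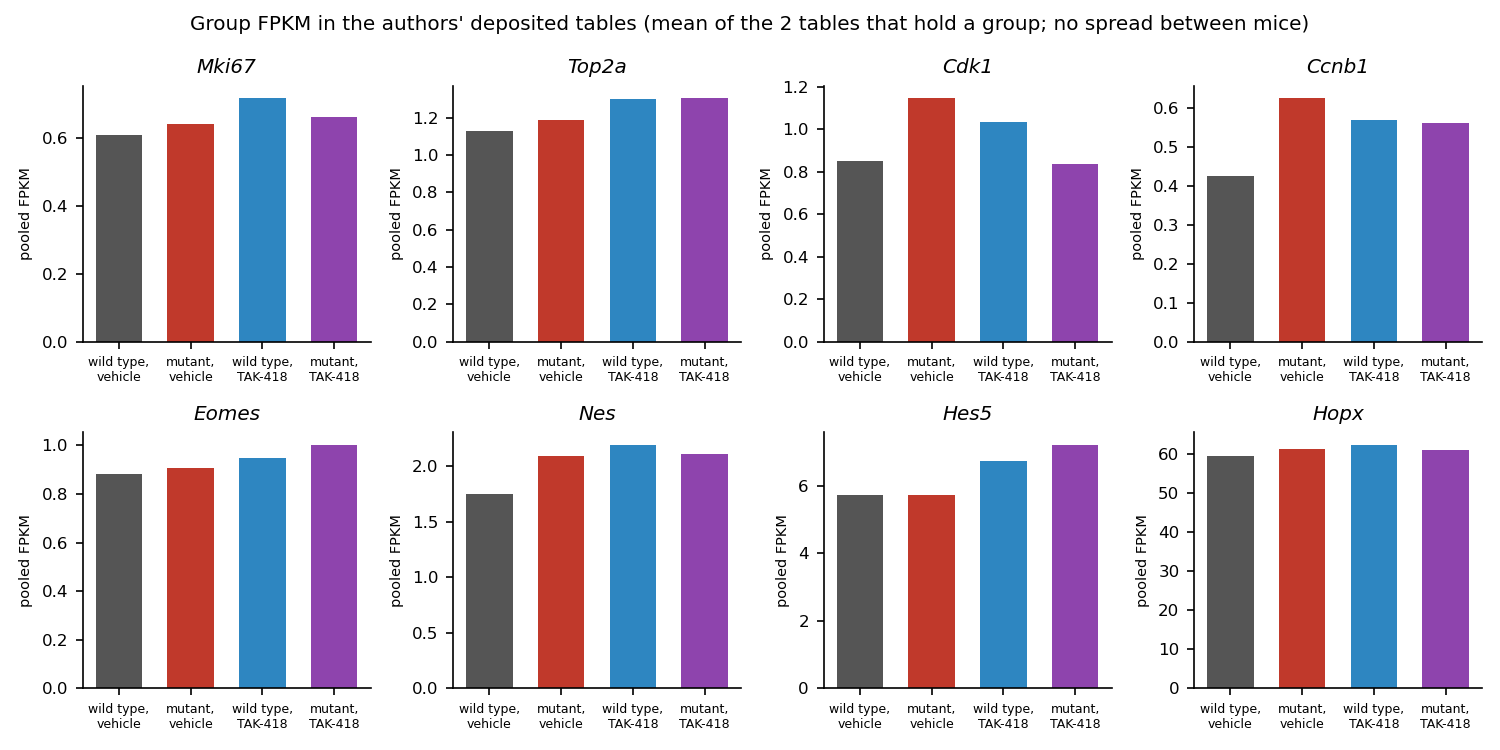
Pooled FPKM of 8 genes (y axis, linear from 0, own range per panel) in the 4 groups (x axis) of the authors' deposited tables, each bar the mean of the 2 tables that hold a group. Wild-type vehicle is the lowest bar for Mki67, Top2a, Ccnb1, Eomes, Nes and Hopx, and no bar carries a spread between mice. The share of all loci with wild-type vehicle lowest was not computed.

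Other genes of the cell cycle were tested as a list. Of 38 genes (replication factors such as the Mcm helicase subunits, mitotic kinases and kinesins), 0 passed an adjusted p of 0.05 in any of the 5 contrasts with limma on either value, and 1 to 2 in each contrast had an unadjusted p under 0.05 with the base-averaged one. Over all genes 4.63% to 8.52% had, depending on the contrast, the highest share being that for TAK-418 in wild types. Base-averaged medians were 0.03 for genotype under vehicle, -0.02 and 0.04 for TAK-418 in mutants and wild types, -0.01 for genotype under TAK-418 and -0.06 for the interaction, beside 0.00 over all genes in each. The base-averaged levels of all 38 genes added to 233 to 254 in wild-type vehicle, 201 to 276 in mutant vehicle, 144 to 211 in wild-type TAK-418 and 207 to 234 in mutant TAK-418 libraries. Wild-type vehicle and wild-type TAK-418 libraries did not overlap in this sum. With the summed value they overlapped, at 267 to 504 and 148 to 489. For the 37 genes other than Tyms the base-averaged sum was 129 to 130 in wild-type vehicle and 125 to 137 in mutant vehicle libraries. It was 126 to 136 in wild-type TAK-418 and 123 to 135 in mutant TAK-418 libraries. Tyms, thymidylate synthase, was left out of the second sum after its values were seen. It ranged from 8.26 to 144 and averaged 112 in wild-type vehicle and 49.0 in wild-type TAK-418 libraries (log2 change -1.50 ± 0.57, adjusted p = 0.499, limma). The most abundant of the rest were Pcna, the sliding clamp of replication, at 48.5 ± 2.42 (SD, n = 3) in wild-type vehicle, and Hmgb2 at 8.96 ± 0.446 (SD, n = 3). E2f1, a transcription factor of the G1 to S transition, had the smallest p for genotype under vehicle (2.71 in wild types and 3.37 in mutants, log2 change 0.26 ± 0.11, adjusted p = 0.844, limma).

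Of 26 further genes of radial glia and quiescent stem cells, limma called 0 in each contrast, and 0 to 2 had an unadjusted p under 0.05. Slc1a3, a glutamate transporter, at 209 ± 8.39, and Gfap, a glial filament, at 172 ± 8.46 (SD, n = 3 wild-type vehicle libraries) were the most abundant. Medians were 0.00 for genotype under vehicle and for TAK-418 in mutants, 0.06 for TAK-418 in wild types and 0.01 for genotype under TAK-418. Vim, vimentin, was at 25.1 in wild-type and 29.3 in mutant vehicle libraries (log2 change 0.22 ± 0.06, adjusted p = 0.599, limma). Notch ligand Dll1 had the smallest p for TAK-418 in wild types (3.16 to 2.66, log2 change -0.22 ± 0.12, adjusted p = 0.652, limma).

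Genes of intermediate progenitors and newborn neurons, 11 of 13 of them tested, had the medians furthest from 0 of the 3 lineage lists in the TAK-418 effects. With TAK-418 in wild types 8 were higher and 3 lower, the median was 0.22 against 0.00 over all genes, and 5 of 11 had an unadjusted p under 0.05, all higher, beside 8.52% of all genes, and 0 passed adjustment in limma. Igfbpl1, a marker of newborn neurons, averaged 7.84 in wild-type vehicle and 11.8 in wild-type TAK-418 libraries (log2 change 0.58 ± 0.14, adjusted p = 0.254, limma). Stmn1, the most abundant gene of the list, went the other way, from 259 to 233 in the same groups. The base-averaged levels of the list, added over its genes, overlapped: 480 to 531 in wild-type vehicle and 455 to 534 in wild-type TAK-418 libraries. Neurog2, a proneural factor of progenitors, averaged 1.78 in wild-type vehicle, 1.68 in mutant vehicle, 2.38 in wild-type TAK-418 and 2.26 in mutant TAK-418 libraries (TAK-418 in mutants 0.33 ± 0.14, adjusted p = 1, limma). In mutants TAK-418 gave 10 higher and 1 lower, with a median of 0.13. For genotype under TAK-418 all 11 were lower in mutants, by a median of -0.06. With the summed value the medians were 0.16 and 0.07 for the drug in wild types and mutants. Eomes itself had base-averaged changes of -0.03 and -0.17 for the drug in wild types and mutants.

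**Figure D5:**
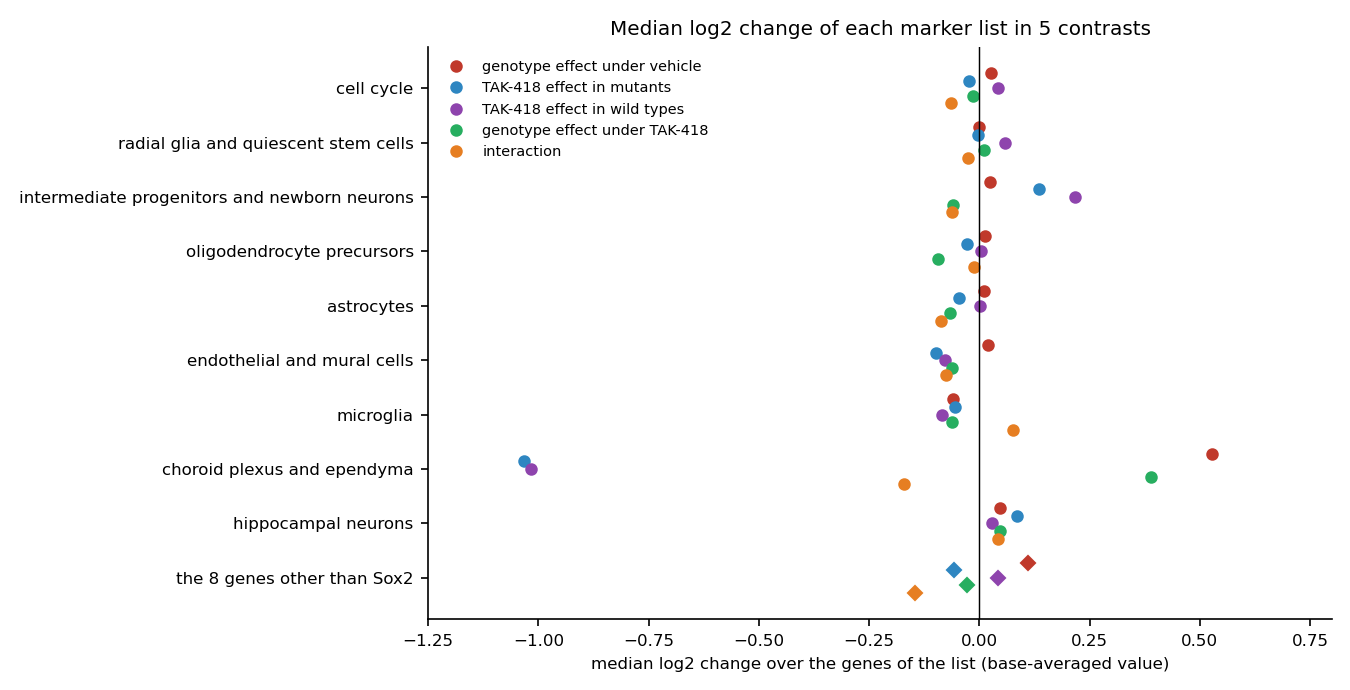
Median log2 change (x axis, base-averaged value) of each marker list and of the 8 genes other than Sox2 (y axis) in the 5 contrasts, coloured by contrast. Only choroid plexus and ependyma markers lie more than 0.25 from 0, down to -1.03 with TAK-418 in mutants, and the 8 genes stay between -0.15 and 0.11.

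Markers of other cells that express the members, or lie beside the hippocampus, were also measured. None of the lists of oligodendrocyte precursors, astrocytes, endothelial and mural cells, microglia, choroid plexus and ependyma, or hippocampal neurons, 10 genes each, held a gene past an adjusted p of 0.05 in limma, and with the base-averaged value 0 to 4 genes of a list had an unadjusted p under 0.05 in a contrast. The 4 were hippocampal neuron markers with TAK-418 in wild types, where 8.52% of all genes had. The base-averaged levels of astrocyte, microglial and precursor markers, added over each list, overlapped between all groups: astrocyte markers were 826 to 1251, microglial markers 226 to 280 and precursor markers 154 to 248 over the 14 libraries. Those of hippocampal neurons were 2731 to 2783 in wild-type vehicle and 2801 to 2934 in mutant vehicle libraries, which did not overlap. Among single genes, 8.98% had no overlap in this contrast. With the summed value the same groups overlapped, at 2743 to 2829 and 2800 to 3016. The part of all these markers in the members' values was not tested.

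Correlations here are descriptions over 14 libraries that share the scaling and the assembly method, computed for 36 pairs on the log2 base-averaged value and given without a p. Among the 10 pairs of Mki67, Top2a, Cdk1, Ccnb1 and Eomes, Pearson's r ran from -0.42 to 0.33 with a median of -0.04, and 5 were above 0. Cdk1 and Ccnb1, partners in 1 kinase, gave r = 0.33 and Spearman's rho = 0.41, and r = 0.18 without the 2 farthest libraries. Mki67 and Top2a gave r = -0.30 and rho = -0.31, and 0.17 without the 2 farthest. Nes, Hes5 and Hopx gave 0.12 to 0.39 in 3 pairs. The highest pair was Top2a with Nes (r = 0.67, rho = 0.55, and 0.40 without the 2 farthest libraries). Hopx followed the 24 radial glia genes seen in at least 12 libraries at r = 0.59 (rho = 0.50, and 0.51 without the 2 farthest). The other stem members did not follow the same genes as closely: r was 0.19 for Sox2, 0.005 for Nes and -0.004 for Hes5. With the cell cycle list r was 0.43 for Cdk1, 0.34 for Top2a, 0.06 for Mki67 and 0.005 for Ccnb1. The stem members gave 0.50 (Nes), 0.34 (Hopx), 0.21 (Hes5) and 0.03 (Sox2) with the same list, so Nes was above every division gene. Eomes gave r = 0.02 with the list of intermediate progenitors and newborn neurons.

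The genes whose pattern was most like the mean standardized profile of the 5 division and progenitor genes, out of 14900 compared over 14 libraries, were Pknox1 (r = 0.91), Tprkb (0.84), Ndufs1 (0.83), Lin9 (0.83) and Efcab5 (0.83). For the profile of Sox2, Nes, Hes5 and Hopx they were Alg2 (0.80), Klhl6 (0.79), Gna11 (0.79), Cdk16 (0.78) and Ccdc85c (0.76). Without Sox2 the first was Cdk16 (0.82), and 1 of the 5 was shared with the former set. These are the highest of many values and carry no test.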

How the data were processed

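RNA sequencing of hippocampus was measured in 14 libraries, 1 per sample. Reads were aligned with TopHat2 2.1.0 to mm10 and checked with FastQC, per the submitters' processing notes. Transcripts and their abundances, deposited as a score of no stated unit, were assembled by CLASS 2.1.7, per the file headers. The authors' deposited comparison tables hold FPKM per group, log2 fold changes, p-values and q-values, with replicates pooled. The labels name 2 library kits without saying which sample had which.

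Transcripts were assigned to GENCODE M21 genes by a shared intron or, for single exons, 50% overlap. Gene values were summed abundances, or base-averaged ones over at least 100 assembled exon bases. The second was added after seeing the data; its choice of reference transcript was revised once after member values were seen and before any fit, and a mean over all exon bases was seen and dropped. Log2(value + pseudocount), with 0.878 (summed) or 0.647 (base-averaged), was fitted with limma 3.58.1 (R 4.3.3) over all 14 libraries, with Benjamini-Hochberg adjustment over all genes with a value in at least 3 libraries. Fold changes on this scale understate changes of low genes. Scaling factors ran from 0.847 to 1.07. The scripts were checked on simulated data. Alternatives covered scaling, pseudocount, filters, transcript choice and leaving out each library.

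Named were the 9 members, Kmt2d, Kdm1a, the most abundant and lowest-p genes of each list, and the 5 genes most alike. The members and lists were chosen with earlier results of these data known. The study's design text gives 3 to 4 mice per group, while wild-type TAK-418 has 5 libraries. Whether each library is a separate mouse is not stated, so p-values measure the spread between libraries.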

Additional observations from a re-analysis of the deposited data

Results flagged for a closer look

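In the group of 5 wild-type TAK-418 libraries, the only group of more than 3, each measure was searched for 1 library standing apart, with a gap to its nearest neighbour above 0.71 of the group's range. Of 27 measures 4 met this, and chance alone meets it in about 1 of 20 groups. The share of Mki67 exon bases assembled was 96.4% in replicate 1, the library of highest inferred depth, and 41.8% in the next. Base-averaged Eomes was 0.499 in replicate 4, where the gene lay in 5 pieces, and 1.09 in the next lowest library. The share of Eomes exon bases assembled was 30.3% in replicate 3 and 60.7% in the next. The summed value of Sox2 was 13.8 in replicate 2 and 1.09 in the next.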

How the results depend on the processing

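No member passed an adjusted p of 0.05 under any alternative run. Of 1061 recomputed changes of the summed value, 1020 stayed within 1 standard error, 33 moved further with the same sign and 8 changed sign beyond it, with a smallest adjusted p of 0.440 in limma. Of 976 of the base-averaged value, 961 stayed within 1 standard error, 15 moved and 0 changed sign beyond it, with a smallest adjusted p of 0.539 in limma. The sign differed from the main run in 50 recomputed summed and 36 recomputed base-averaged changes. Only the summed value was rerun with a gene's highest transcript or with multi-exon transcripts. Most of its sign changes beyond 1 standard error came from the highest transcript, so the counts for the pair of values are not like for like. With only a gene's highest transcript, the genotype effect under vehicle became -0.088 for Mki67 and 0.19 for Cdk1, the TAK-418 effect in wild types -0.16 for Mki67 and 0.031 for Top2a, the genotype effect under TAK-418 0.050 for Eomes and the interaction 0.27 for Mki67. Without scaling, the genotype effect under vehicle of Hopx became -0.00082. Leaving out single libraries moved the genotype effect under TAK-418 of Ccnb1 from -0.24, without mutant TAK-418 replicate 3, to 0.27. The causes were not tested beyond the number of pieces. Counting only multi-exon transcripts left Sox2 listed in 0 libraries instead of 7. No paired analysis was possible because the labels give no replicate numbers: those used here only name the libraries of a group in the order they were listed.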
